A study of Mus musculus with 12 samples.

Results

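This account concerns 10 mouse genes of meiotic chromosome structure in m6A peak lists of neural stem cell-like cells (iNSCs) and of the spermatogonial stem cells (SSCs) from which they were derived. The genes were the meiotic cohesin subunits Smc1b, Rec8, Rad21l and Stag3, the transverse filament gene Sycp1, the axial element genes Sycp2 and Sycp3, and the central element genes Syce1, Syce2 and Tex12. They are 10 of the 21896 protein-coding genes whose RefSeq spans were used, and a listed peak (called an entry here) belonged to a gene when it overlapped that span by at least 1 base. Of 118075 entries in 6 lists, 193 overlapped the 10 genes and 183 of these lay on the gene's own strand.

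The iNSC libraries came from SSCs moved to laminin and given 1 µM retinoic acid for 24 h in the SSC medium, which held 20 ng/mL GDNF, and then a neural medium with 10 µM SB431542, a TGF-β receptor kinase inhibitor, and 20 ng/mL basic FGF. The SSC libraries came from cells kept on inactivated STO fibroblast feeders in that same SSC medium, and per the labels the SSC samples were of testis. Each group had 3 antibody pull-down libraries of poly(A) RNA in fragments of about 200 nt, with 1 peak list per library, while the 6 input libraries were not analysed here. The labels' cell type field names the opposite cell type in 12 of 12 samples, so the titles and source names were followed, and the series title speaks of MeDIP where the protocols describe m6A RNA immunoprecipitation. The lists held 13913, 16002 and 16060 entries in iNSC replicates 1, 2 and 3 and 27597, 19728 and 24775 in SSC replicates 1, 2 and 3. Because the lists carry no read counts, depth is not known for any library, and values are given without counting intervals. Marker genes did not all follow the titles. On the gene's own strand Ddx4, a germ cell helicase, had 0 entries in each iNSC list and 5, 5 and 3 in the SSC lists, and the neural gene Pax6 had 3, 4 and 4 in the iNSC lists and 0 in each SSC list. The neural stem cell markers Sox2 and Msi1, in contrast, had 0 in each iNSC list and an entry in every SSC list (1, 1 and 1 for Sox2, 2, 1 and 1 for Msi1). Nes, another neural marker, stood at the 4.45, 20.96 and 35.05 percentile of score in the iNSC lists and at the top score in every SSC list. Of 9 SSC and germ cell markers, 4 (Ddx4, Zbtb16, Id4 and Lhx1) had an entry in every SSC list and in no iNSC list. That pattern was shown by 11.0% of the 13508 genes with an own-strand entry in any list. Etv5, in contrast, had 2, 3 and 2 entries in the iNSC lists and 1, 0 and 2 in the SSC lists. Gfra1 had 1 entry in iNSC replicate 3 and 0 in each SSC list, and Uchl1 had none in any list.

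m6A is a methyl group on adenosines of mRNA, and the antibody enriches fragments that carry it. In meiosis, cohesin rings with germline subunits hold sister chromatids together and organise them as loops along a protein axis. The synaptonemal complex then joins the axes of paired homologous chromosomes through transverse filaments that meet in a central element, and most of its components are known for being restricted to germ cells. An entry reflects how much of a transcript was present as well as how much of it was methylated, and without the inputs these cannot be told apart. In bulk samples, fewer cells of a type and less RNA per cell cannot be told apart either.

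The start regions of 8 of the genes are printed. The first 7 were chosen because they hold the motif TCCCGC, among them Rec8, which had no entry in any list. Syce1 follows for contrast, since it holds neither motif searched and had an entry on its annotated start in every SSC list. The windows hold the 200 bases before the annotated transcript start and the first 10 bases of the transcript, 5′ to 3′ on the gene's strand, from RefSeq on GRCm38.p6, where all 10 genes had a window. Capitals mark TCCCGC, the core of the element bound by the repressor E2F6, and CACGTG, the E-box bound by MAX and its partners, each searched on both strands, so TCCCGC can also appear as GCGGGA. E2F6 and the MAX partner MGA are known as members of a Polycomb complex that silences meiotic genes in other mouse cells.
Smc1b (chr15:85131948-85132157, minus strand): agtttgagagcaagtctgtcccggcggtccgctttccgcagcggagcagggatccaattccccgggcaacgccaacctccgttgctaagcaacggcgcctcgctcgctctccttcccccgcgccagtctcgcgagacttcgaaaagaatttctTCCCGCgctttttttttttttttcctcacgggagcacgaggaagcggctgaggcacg
Stag3 (chr5:138280309-138280518, plus strand): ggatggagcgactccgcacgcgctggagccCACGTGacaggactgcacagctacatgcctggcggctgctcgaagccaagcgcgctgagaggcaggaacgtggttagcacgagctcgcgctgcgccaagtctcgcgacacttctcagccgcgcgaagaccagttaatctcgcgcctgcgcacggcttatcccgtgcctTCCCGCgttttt
Sycp1 (chr3:102936091-102936300, minus strand): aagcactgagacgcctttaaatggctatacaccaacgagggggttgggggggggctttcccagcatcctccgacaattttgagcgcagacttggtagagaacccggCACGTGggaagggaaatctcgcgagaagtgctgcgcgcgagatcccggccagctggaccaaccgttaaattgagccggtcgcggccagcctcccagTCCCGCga
Sycp3 (chr10:88459387-88459596, plus strand): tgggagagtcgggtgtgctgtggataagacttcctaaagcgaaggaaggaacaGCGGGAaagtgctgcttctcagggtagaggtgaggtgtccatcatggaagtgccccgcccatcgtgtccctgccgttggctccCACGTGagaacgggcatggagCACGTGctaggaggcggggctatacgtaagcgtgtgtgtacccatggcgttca
Syce2 (chr8:84872058-84872267, plus strand): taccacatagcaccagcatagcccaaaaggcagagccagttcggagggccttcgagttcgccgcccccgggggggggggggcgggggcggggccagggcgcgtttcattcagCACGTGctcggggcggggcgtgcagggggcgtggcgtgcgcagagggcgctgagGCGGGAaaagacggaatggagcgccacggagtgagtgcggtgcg
Tex12 (chr9:50561259-50561468, minus strand): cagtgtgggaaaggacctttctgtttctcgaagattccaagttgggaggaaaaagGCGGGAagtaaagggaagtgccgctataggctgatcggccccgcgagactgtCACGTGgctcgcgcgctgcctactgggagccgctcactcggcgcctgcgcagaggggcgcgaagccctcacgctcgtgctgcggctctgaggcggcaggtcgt
Rec8 (chr14:55617966-55618175, plus strand): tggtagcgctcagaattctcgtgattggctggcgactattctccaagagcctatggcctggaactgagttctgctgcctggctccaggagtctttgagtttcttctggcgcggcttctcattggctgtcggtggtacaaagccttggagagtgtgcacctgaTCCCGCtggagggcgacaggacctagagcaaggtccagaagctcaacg
Syce1 (chr7:140787845-140788054, minus strand): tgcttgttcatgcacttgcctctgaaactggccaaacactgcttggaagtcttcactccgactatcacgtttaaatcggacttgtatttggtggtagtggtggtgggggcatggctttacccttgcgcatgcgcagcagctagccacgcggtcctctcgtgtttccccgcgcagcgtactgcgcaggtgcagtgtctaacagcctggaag
In the longer windows of 250 bases before to 50 bases after the start, TCCCGC was found in 7 of the 10 genes, all those printed above other than Syce1, against 28.4% of 17491 genes. CACGTG was found in 5 of the 10 (Stag3, Sycp1, Sycp3, Syce2 and Tex12), against 8.91% of genes, and both motifs in the same 5, against 3.57% of genes. Among the ubiquitous cohesin genes, 3 had a window, and Smc1a, Smc3 and Stag1 held TCCCGC while none of the 3 held CACGTG. The windows of the 10 genes held a median of 19.5 CpG dinucleotides, against 15 over all genes. A match describes these letters only. The genes with a TCCCGC match included Rec8, with no entry in any list, and Smc1b, with many, while Rad21l, Sycp2 and Syce1 had neither motif.

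Entries in these genes lay mostly in the SSC lists. On the gene's own strand 8 entries lay in the iNSC lists, all in Sycp1, and 175 in the SSC lists, and 9 of the 10 genes had an entry in every SSC list. Rec8 had no entry in any list. A gene was called SSC-only when every SSC list and no iNSC list held an entry in it. On the own strand 8 genes were SSC-only (Smc1b, Rad21l, Stag3, Sycp2, Sycp3, Syce1, Syce2 and Tex12), against 11.0% of the 13508 genes with an own-strand entry in any list. No member was iNSC-only, against 2.39% of genes, and Sycp1 had entries in all 6 lists, as had 30.0% of genes. With entries on either strand 6 genes were SSC-only, against 10.9% of 13749 genes, because Sycp3 and Syce2 then took entries of overlapping neighbours on the other strand. Counted so, no member was iNSC-only, against 2.44% of genes, and Sycp1 and Sycp3 had entries in all 6 lists, as had 30.6% of genes.

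**Figure D1:**
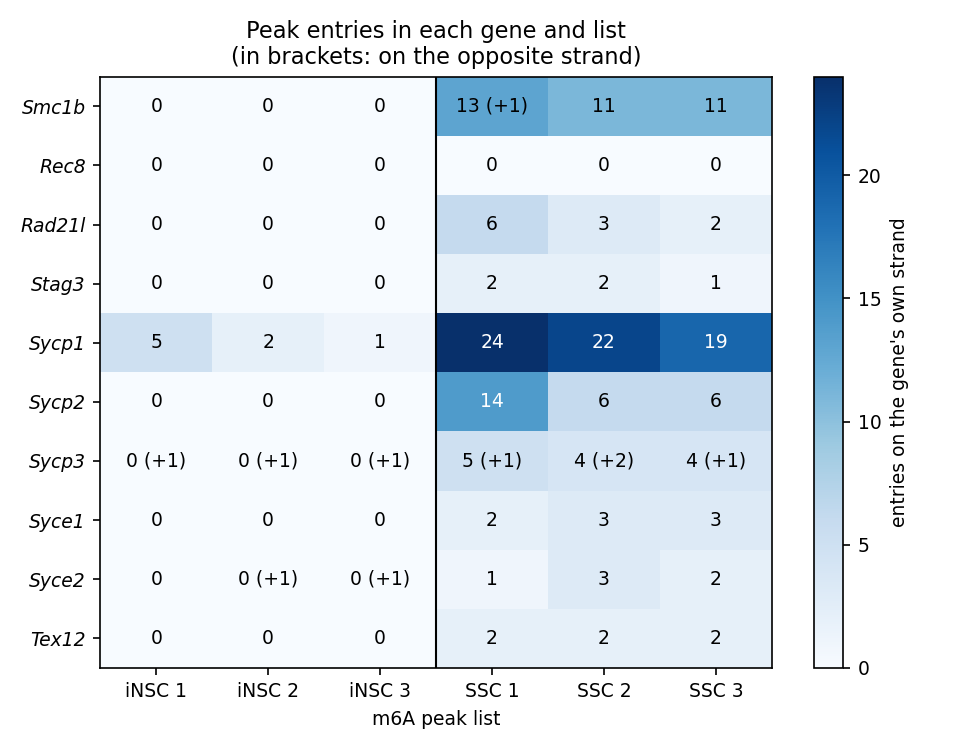
Number of entries on the gene's own strand in each of the 10 genes (rows) and each of the 6 lists (columns, 3 iNSC and 3 SSC), with darker blue for more entries and opposite-strand entries in brackets. Sycp1 is the only row with an own-strand entry in an iNSC list (5, 2 and 1), and Rec8 is at 0 in all 6 lists.

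For all 9 genes with an entry, every iNSC list held fewer own-strand entries than every SSC list. That pattern was shown by 16.2% of the 13508 genes with an own-strand entry. The exact two-sided permutation test gave p = 0.1 for each of the 9, the smallest value that 3 libraries against 3 allow, and the Benjamini-Hochberg adjusted value over 13508 genes was 0.482, so none passed the threshold of 0.05. For the 8 genes called SSC-only, this order and p follow from the call itself, in entries and in covered bases alike. They restate that call, and Sycp1 alone adds to it. Replicates are numbered in the labels with no word on separate cultures, and the p-values therefore cover the variation among the 6 libraries alone, possibly technical. The median difference of the 9 genes, iNSC minus SSC, was -3.67 entries, against -0.33 over all genes tested. In bases covered on the own strand the median difference was -624, against -50 over all genes, and 9 of 9 genes had every iNSC list below every SSC list, against 15.2% of genes. The opposite order was seen in no member, against 4.58% of genes by entries and 17.8% by covered bases. On either strand every iNSC list was below every SSC list in 8 of 9 genes by entries and 7 of 9 by covered bases, against 16.2% and 15.1% of genes. Again no member showed the opposite order, against 4.68% of genes by entries and 18.1% by covered bases. The iNSC lists were shorter as a whole, with entries in 33.3% ± 1.37 of the 21896 protein-coding genes, against 44.4% ± 4.79 in the SSC lists (SD, n = 3 each). With every list reduced to its 13913 best-scoring entries, Smc1b, Stag3, Sycp2, Sycp3 and Syce1 were SSC-only on the own strand, against 6.75% of genes, and Rad21l, Syce2 and Tex12 each had entries in 2 of 3 SSC lists.

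Among the 4 meiotic cohesin genes, Smc1b had the most entries. It encodes the meiotic SMC protein that pairs with SMC3 in the ring, and it spans chr15:85064689-85131957 on the minus strand of GRCm38. Smc1b had 0 own-strand entries in each iNSC list and 13, 11 and 11 in SSC replicates 1, 2 and 3. The groups did not overlap, and the SSC lists differed from one another by at most 2 entries. On the other strand SSC replicate 1 held 1 more, in the overlapping gene Fam118a. The own-strand entries covered 0 bases in each iNSC list and 1989 ± 170 bases in the SSC lists (SD, n = 3). By number of entries on either strand, Smc1b ranked 53 among 10316 genes, 73 among 8521 and 86 among 10357 in the 3 SSC lists, whose median gene had 2. These ranks are not adjusted for gene length. By the difference in own-strand entries Smc1b ranked 13, and by that in own-strand covered bases 175. Merged across lists, the Smc1b entries formed 15 sites, of which 8 were in all 3 SSC lists, 4 in 2 and 3 in 1. The site chr15:85114679-85114886, with the highest single percentile, stood at the 99.97, 79.4 and 82.3 percentile of score within the SSC lists. The site chr15:85090872-85091017 stood at the 95.7, 99.7 and 91.4 percentile, and chr15:85120618-85120758 at the 98.1, 91.6 and 97.6 percentile. Percentiles rank a site within its own list, since the score of one list was not compared with that of another. The 15 sites lay between 0.0951% and 68.1% of the span from its 5′ end, so none reached the 3′ end. The first, chr15:85131829-85131957, began on the annotated start in SSC replicates 1 and 3.

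Rad21l encodes a meiotic kleisin, the subunit that closes the ring, and spans chr2:151644366-151670622 on the minus strand. It had 0 entries in each iNSC list and 6, 3 and 2 in the SSC lists. Its ranks were low beside those of Smc1b, with a best percentile of 70.1 in SSC replicate 1, 55.1 in replicate 2 and 20.3 in replicate 3. Of its 6 sites 2 were in all 3 SSC lists, among them chr2:151658359-151658451 with percentiles of 70.1, 3.39 and 20.3. The 3 sites nearest the 5′ end were in SSC replicate 1 alone, the longest list. Stag3, the meiotic partner that binds the kleisin, spans chr5:138272514-138312397 on the plus strand and had 0 entries in each iNSC list and 2, 2 and 1 in the SSC lists. Its site chr5:138281865-138282038 was in every SSC list at the 92.1, 66.1 and 86.7 percentile, and its other site, chr5:138289196-138289292, was in SSC replicates 1 and 2. Rec8, the other meiotic kleisin, spans 7394 bases at chr14:55618002-55625395 on the plus strand and had no entry on either strand in 6 of 6 lists. Without read counts it cannot be told whether Rec8 transcripts were absent, unmethylated or under the limit of the lists.

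The ubiquitous cohesin genes Smc1a, Smc3, Rad21, Stag1 and Stag2, whose products form the ring in dividing somatic cells, had entries in both groups. Smc1a, the counterpart of Smc1b, had 4, 4 and 5 entries in the iNSC lists and 3, 6 and 6 in the SSC lists. Smc3, which both kinds of ring share, had 6, 9 and 8 in the iNSC lists and 9, 10 and 9 in the SSC lists. Rad21 had 4, 8 and 3 in the iNSC lists and 6, 6 and 7 in the SSC lists, and these groups overlapped. Stag2 had 4, 6 and 1 in the iNSC lists and 12, 10 and 7 in the SSC lists, which did not overlap, while Stag1 had 1, 2 and 0 in the iNSC lists and 7, 5 and 2 in the SSC lists, which met at 2. The difference between a meiotic gene and its counterpart was compared between groups for 5 pairs. Smc1b minus Smc1a was -4.33 ± 0.577 entries in the iNSC lists and 6.67 ± 2.89 in the SSC lists (SD, n = 3 each), a difference of -11 without overlap (exact two-sided permutation p = 0.1, adjusted over 5 pairs 0.5). For Rad21l against Rad21 the difference was -2.33 (exact permutation p = 0.5), for Stag3 against Stag1 it was 2 (p = 0.3), for Stag3 against Stag2 it was 4.33 (p = 0.2) and for Rec8 against Rad21 it was 1.33 (p = 0.5). By entries these 4 pairs overlapped between groups, and no pair passed after adjustment by entries or covered bases. Rec8 was at 0 in every list, so its pair restates Rad21 alone with the sign reversed. The meiotic genes were at 0 in every iNSC list, so the iNSC side of each pair is the ubiquitous gene alone. By covered bases the difference was -1912 for Smc1b minus Smc1a and 535 for Stag3 minus Stag1, the opposite direction. Each had an exact permutation p of 0.1, adjusted to 0.25. The other pairs had p from 0.2 to 0.9.

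**Figure D2:**
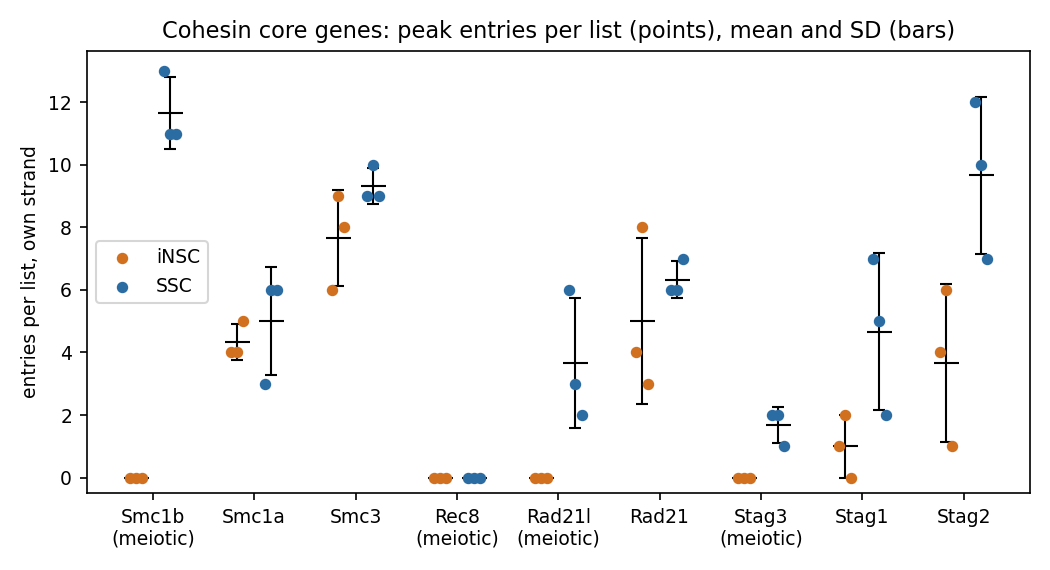
Own-strand entries per list (vertical axis) for the meiotic cohesin genes and the ubiquitous cohesin genes, as points for the 3 iNSC and 3 SSC lists with the mean and SD as bars. All iNSC points of the 4 meiotic genes are at 0, while Smc1a, Smc3, Rad21 and Stag2 have at least 1 entry in every iNSC list and Stag1 has 0 in iNSC replicate 3.

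Sycp1 encodes the coiled-coil protein of the transverse filaments and spans 117602 bases at chr3:102818499-102936100 on the minus strand. It had 5, 2 and 1 entries in the iNSC lists and 24, 22 and 19 in the SSC lists, all on its own strand. The groups did not overlap, and Sycp1 held 37.1% of the own-strand entries of the 10 genes in the SSC lists. By number of entries it ranked 9, 8 and 13 in SSC replicates 1, 2 and 3, and by the size of the difference in own-strand entries it ranked 4 among 13508 genes. By the difference in own-strand covered bases it ranked 129. None of these ranks is adjusted for the length of a gene or its number of exons. Of 9 genes with at least 19 own-strand entries in each SSC list, 3 had 5 or fewer in each iNSC list, namely Neb, Sycp1 and Ttn. Both cutoffs equal counts of Sycp1 itself, its lowest in an SSC list and its highest in an iNSC list. Sycp1 is therefore in that set by construction. The entries of Sycp1 covered 214 ± 141 bases in the iNSC lists and 2411 ± 285 bases in the SSC lists (SD, n = 3 each).

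Merged across lists, the Sycp1 entries formed 25 sites with a median width of 93 bases and a range of 57 to 464 bases. Of the 24 sites in an SSC list, 19 were in all 3. In iNSC lists 6 sites were found, and 1 of them was in all 3. That site, chr3:102900032-102900136, lay 36.0 kb from the 5′ end of the span. Its score stood at the 92.3, 82.2 and 91.8 percentile of the iNSC lists and at the 95.8, 68.1 and 93.5 percentile of the SSC lists, and its edges were the same in all 6. In iNSC replicates 1 and 3 the site had the top score of 3100, and in no SSC list did it reach that score. In these 2 iNSC lists 15.0% and 16.1% of entries were at the top score and shared a mean rank, against 3.73% to 7.56% in the SSC lists. The other 5 iNSC sites were each in 1 iNSC list. Of these, chr3:102925201-102925259 in iNSC replicate 2 stood at the 52.2 percentile and chr3:102922388-102922461 in iNSC replicate 1 at the 64.8 percentile. Both were in every SSC list as well. In iNSC replicate 1, chr3:102913421-102913488 stood at the 19.2 percentile and chr3:102908906-102908967 at the 9.09 percentile, and both were in every SSC list. The site chr3:102915804-102915898, at the 11.2 percentile of iNSC replicate 1, was in no SSC list. The 8 iNSC entries lay between 9.24% and 30.6% of the span from its 5′ end, while the 65 SSC entries lay between 1.07% and 99.8%. The SSC site with the best ranks, chr3:102878774-102878855, reached the top score of 3100 or more in all 3 SSC lists and was in no iNSC list. The last site, chr3:102818499-102818962, ended on the 3′ end of the span in all 3 SSC lists, at the 43.0, 37.4 and 77.8 percentile.

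**Figure D3:**
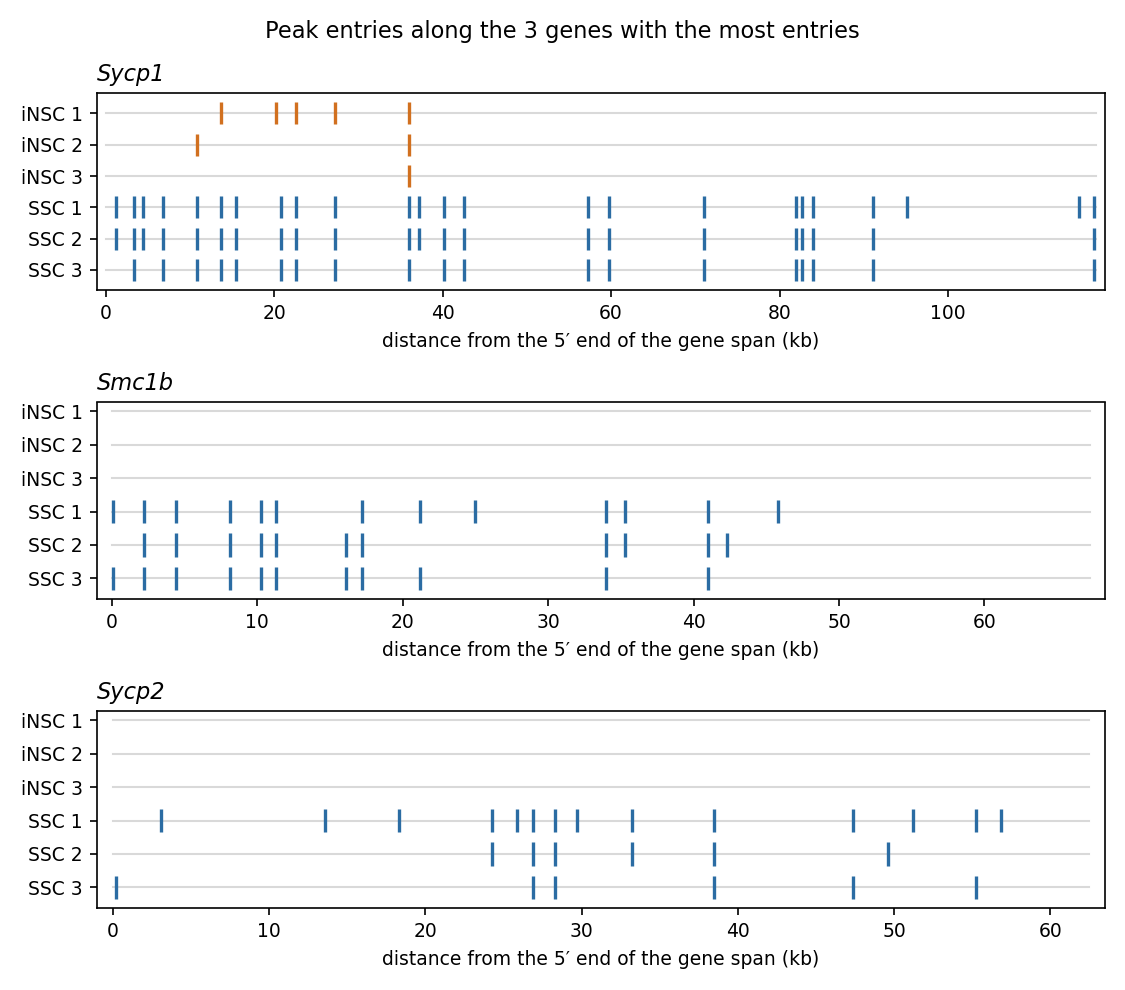
Midpoints of own-strand entries (ticks) along Sycp1, Smc1b and Sycp2 by distance in kb from the 5′ end of the gene span, with 1 line per list, iNSC above SSC. In Sycp1 the only position in every iNSC list is at 36.0 kb, and Smc1b and Sycp2 have ticks in the SSC lines alone.

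**Figure D4:**
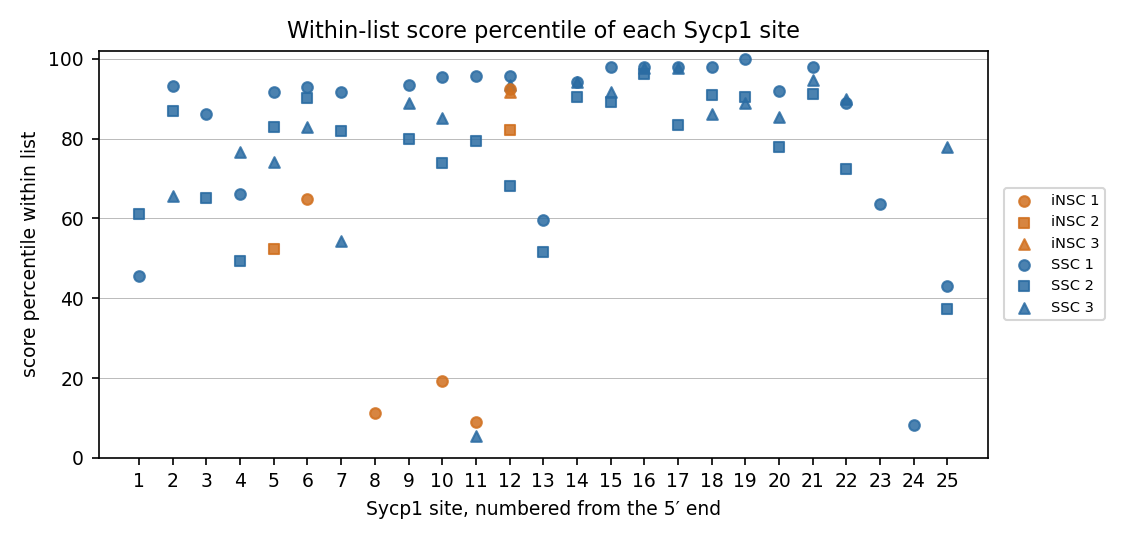
Score percentile within its own list (vertical axis) of each of the 25 Sycp1 sites, numbered from the 5′ end (horizontal axis), in iNSC lists (orange) and SSC lists (blue), with 1 marker shape per replicate. Site 12 is held by all 6 lists, between the 68.1 and 95.8 percentile, and no iNSC marker lies beyond it.

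The axial element genes Sycp2 and Sycp3 encode proteins that assemble on the chromosome axes and become the lateral elements of the complex. Sycp2 spans chr2:178345295-178407776 on the minus strand and had 0 entries in each iNSC list and 14, 6 and 6 in the SSC lists. SSC replicate 1, the longest list, stood above both others. Its entries formed 16 sites, of which 9 were in 1 SSC list and 3 in all 3. Among those 3, chr2:178379363-178379548 had the best ranks, at the 94.4, 87.5 and 92.8 percentile. The sites were spread from 0.335% to 91.0% of the span. Sycp2 entries covered 1369 ± 695 bases in the SSC lists (SD, n = 3).

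Sycp3 spans chr10:88459587-88473236 on the plus strand and had 0 own-strand entries in each iNSC list and 5, 4 and 4 in the SSC lists. The strongest of its 6 sites, chr10:88459569-88459712, covered the annotated start in the window printed above. It stood at the 98.1, 88.9 and 97.6 percentile of the SSC lists. The sites chr10:88463363-88463426 and chr10:88466439-88466556 were also in every SSC list. At the 3′ end Sycp3 overlaps Chpt1, a choline phosphotransferase gene on the other strand. There iNSC replicates 1, 2 and 3 each held 1 minus-strand entry between 88470653 and 88471566, and the SSC lists held 1, 2 and 1, of which 1 per list lay at chr10:88469514-88469842. The own-strand entry of SSC replicate 1 at chr10:88472676-88473236 overlapped the second minus-strand entry of SSC replicate 2, chr10:88472817-88473399, and whether its reads came from Sycp3 alone was not tested. Counted on either strand, Sycp3 had 1, 1 and 1 entries in the iNSC lists and 6, 6 and 5 in the SSC lists.

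The central element genes had few entries each, in the SSC lists alone on their own strand. Syce1, at chr7:140777229-140787854 on the minus strand, had 0 in each iNSC list and 2, 3 and 3 in the SSC lists. Its site chr7:140787736-140787854 began on the annotated start in every SSC list, at the 59.3, 55.1 and 94.7 percentile. Syce2, at chr8:84872111-84887446 on the plus strand, had 0 own-strand entries in each iNSC list and 1, 3 and 2 in the SSC lists. Its site chr8:84872258-84872832 began on the annotated start of the window printed above and stood at the 22.6, 84.7 and 93.2 percentile. Entries on the other strand in iNSC replicates 2 and 3, at chr8:84886387-84887053, lay in the overlapping gene Gcdh, a mitochondrial dehydrogenase gene. Tex12, at chr9:50557148-50561268 on the minus strand, had 0 in each iNSC list and 2, 2 and 2 in the SSC lists. No Tex12 site was in all 3 SSC lists. Its site near the 3′ end, chr9:50557199-50557491, was in SSC replicates 1 and 3 at the 61.6 and 17.5 percentile, and its site at the annotated start, chr9:50561226-50561268, was in replicates 2 and 3.

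Members also differed from the lists as a whole in the width and position of their entries, given here as a description. In the SSC lists the median width of their own-strand entries was 117 ± 1.61 bases, against 199 ± 5.69 over own-strand entries of all genes and 155 ± 4.93 in the ubiquitous cohesin genes (SD, n = 3 each). Without Sycp1 the median width of the members was 144 ± 1.00 bases. Their median position was 36.2% ± 4.71 of the span from the 5′ end, against 64.5% ± 3.18 over all genes and 59.2% ± 2.55 in the ubiquitous cohesin genes. Within 2000 bases of the 3′ end lay 5.72% ± 0.329 of member entries, against 17.1% ± 1.40 of entries of all genes and 1.80% ± 3.12 in the ubiquitous cohesin genes. Their median score percentile was 75.4 ± 6.98, against 50 over all genes, and 75.6 ± 12.4 in the ubiquitous cohesin genes. Without Sycp1 it was 67.9 ± 11.0. Gene by gene, over all SSC entries, the median percentile was 29.8 in Rad21l, 33.1 in Tex12 and 37.8 in Syce2. In the other members with entries it ran from 56.4 in Syce1 to 88.9 in Sycp1. Exon models were not used here, so these positions are along the genomic span and not along the mRNA.

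How far the sites recurred between SSC lists differed among members. Of the 79 member sites in an SSC list, 39 (49.4%) were in all 3, against 21.2% of 42931 sites over all protein-coding genes and 46.0% of 50 sites in the ubiquitous cohesin genes. Sycp1 supplied 19 of these 39, out of its 24 SSC sites, and Smc1b 8 out of 15. In Sycp2 it was 3 of 16 sites (18.8%) and in Tex12 0 of 4, both under the share over all genes. The share over all genes includes genes with an entry in 1 SSC list only, while every member other than Rec8 had an entry in all 3. Of the 57 member sites held by several lists, 55 (96.5%) had the same edges in each, against 49.7% of 25945 sites over all genes and 92.1% of 38 sites in the ubiquitous cohesin genes. Equal edges are no measure of recurring signal, since part of the entry edges in every list fell on annotated gene edges. Whether the equal edges here follow annotated exon edges was not tested, as exon models were not used. Counting entries of a gene less than 500 bases apart as 1 changed no member's count.

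A list of 18 other genes of meiotic chromosomes held nuclear envelope and crossover genes as well as genes of the complex and of the chromosome axis. Of these 18, 9 were SSC-only, against 11.0% of the 13508 genes with an own-strand entry, and none was iNSC-only, against 2.39%. Hormad2 and Fkbp6 had no entry in any list. An own-strand entry was found in 1.33 ± 0.577 of the 18 per iNSC list, against 13.7 ± 2.31 per SSC list (SD, n = 3 each). In order of rank the first 6 SSC-only genes were 4930447C04Rik (also called Six6os1, a central element gene), Hormad1 (an axis protein), Kash5 (a nuclear envelope linker), Tex15, Ccnb1ip1 (a crossover regulator) and Tex11. Hormad1 had 0 entries in each iNSC list and 8, 3 and 3 in the SSC lists, and 4930447C04Rik had 0 in each iNSC list and 9, 3 and 2 in the SSC lists. Of 15 genes that load, release or protect cohesin, none was SSC-only, against 11.0% of the genes with an own-strand entry. Entries in all 6 lists were found in 9 of the 15, against 30.0% of those genes, and Pttg1 had no entry in any list. Per iNSC list 12 ± 1 of the 15 had an entry, against 11.3 ± 1.53 per SSC list. The 1 iNSC-only gene among the 15, against 2.39% of genes with an own-strand entry, was Espl1, the separase that cleaves the kleisin. Espl1 had 1, 1 and 3 entries in the iNSC lists and 0 in each SSC list.

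Marker lists of other cells the samples could hold were counted in the same way. Of 13 spermatocyte and spermatid markers, 0 had an own-strand entry in an iNSC list and 4 in each SSC list. Their summed entries were 0 in each iNSC list and 7 to 13 in the SSC lists, and Tnp2, Prm1, Prm2, Pgk2 and Ldhc had none in any list. Hormad1, counted above with the axis genes, supplied 8, 3 and 3 of the entries in the SSC lists and was the 1 marker of that list in every SSC list. Of the 13 markers 30.8% had an entry in each SSC list, where the mean share over all genes, on either strand, was 44.4%. In the iNSC lists these shares were 0% and 33.3%. Of 7 markers of differentiating spermatogonia and meiotic entry, 0 had an entry in an iNSC list and 4 to 7 in the SSC lists, with 0 summed entries in each iNSC list and 10 to 12 in the SSC lists. Stra8, the retinoic acid-induced gene of meiotic entry, had 0 in each iNSC list and 2, 3 and 2 in the SSC lists. Of 9 markers of SSCs and germ cells, 1 to 2 had an entry in the iNSC lists and 4 to 7 in the SSC lists, with 2 to 3 summed entries in the iNSC lists and 10 to 14 in the SSC lists. Of 7 fibroblast markers, 2 to 3 had an entry in the iNSC lists and 2 to 6 in the SSC lists, with 5 to 8 summed entries in the iNSC lists and 2 to 12 in the SSC lists, and Postn had none in any list. Of 6 testis somatic markers, 1 had an entry in each iNSC list and 2 to 4 in the SSC lists, with 1 to 2 summed entries in the iNSC lists and 6 to 7 in the SSC lists, and Cyp11a1 and Insl3 had none. Of 7 neural stem cell markers, 2 had an entry in each iNSC list and 3 to 4 in the SSC lists, with 4 to 6 summed entries in the iNSC lists and 3 to 5 in the SSC lists, and Sox1 and Fabp7 had none. Of these 7, Pax6 was iNSC-only, against 2.39% of genes with an own-strand entry. Sox2 and Msi1 were SSC-only, against 11.0% of those genes. In the SSC lists 57.1% to 100% of meiotic entry markers had an entry, and 44.4% to 77.8% of SSC and germ cell markers. There it was 28.6% to 85.7% of fibroblast, 33.3% to 66.7% of testis somatic and 42.9% to 57.1% of neural stem cell markers. These last 3 ranges include the share over all genes. In the iNSC lists the shares were, in the same order, 0%, 11.1% to 22.2%, 28.6% to 42.9%, 16.7% and 28.6%. The part of these cell types in the members' entries was not tested.

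By bases covered on the own strand in the 6 lists, the genes nearest to Smc1b were Sox3, Ccdc71l and Ccpg1, with summed absolute differences of 385, 400 and 408 bases against a total of 5967 bases in Smc1b. These 3 genes reached their cover with 1 or 2 entries per SSC list, where Smc1b had 11 to 13. The genes nearest to Sycp2 were Fam78a, Rspo2 and Phyhipl, and those nearest to Sycp3 were Tbx2, Gtf2ird1 and Wdr11.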

How the data were processed

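Per the labels' protocols, poly(A) RNA was fragmented, pulled down with an m6A antibody and sequenced from directional libraries. The tools cutadapt 1.9.3 and HISAT2 2.0.4 are listed, with build mm9, in the submitters' processing notes. Which caller made the peaks, and at what threshold, is not given in the sources used here. The authors deposited a score without a unit for each entry. It started at about 50, and 3100 or more was counted as the top score. Scores served only to rank entries within their own list. Peaks were listed per library, not on pooled samples.

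Edges of 4.90% to 12.0% of entries fell on RefSeq GRCm38.p6 gene edges, against 0.00807% to 0.0187% after a shift of 10000 bases, so coordinates are given on GRCm38, 1-based. Strand came from the RefSeq start table, or from most entries for the 4405 genes without one. Overlapping genes each received an entry. Entries of all lists on 1 strand that overlapped by at least 1 base were merged into sites. Differences are iNSC minus SSC, tested with exact two-sided permutation over libraries for each gene and adjusted by Benjamini-Hochberg over all genes (Python 3.11.15, pandas 2.3.3, numpy 2.4.6, scipy 1.17.1); the calculation was tested on simulated data. The planned count used entries on either strand and its own-strand alternative is printed beside it. Alternatives were the better-scoring 50% of each list, equal list length, 50% of an entry inside the span, the own strand, a width of at least 100 bases, 2 of 3 SSC lists, merging within 500 bases, the replicate block and leaving out each library.

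Named were the 10 members, the ubiquitous cohesin genes, up to 6 genes per direction and list that were SSC-only or iNSC-only in order of their lowest within-list percentile, the 3 genes nearest in covered bases to Smc1b, Sycp2 and Sycp3, the site of each member in most lists and every site in an iNSC list. Neb, Ttn, the neighbours on the other strand and a few further sites and marker genes were named after their values were seen. The members and lists were chosen with earlier results of these data known.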

Additional observations from a re-analysis of the deposited data

How the results depend on the processing

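Counts on either strand were the planned values: 6 SSC-only members, and differences, iNSC minus SSC, of -6.33 member genes with an entry, -55.7 entries and -7796 covered bases per list. No alternative reversed a direction. SSC-only members numbered 5 in the better-scoring 50%, 4 at equal list length, 5 at a width of at least 100 bases and 8 on the own strand. Over all genes such calls numbered 1501 (10.9% of 13749) as planned, 1343 at that width and 1490 (11.0% of 13508) on the own strand. On the own strand 5 members were SSC-only in the better-scoring 50%, 5 at equal list length and 7 at that width. The shares over the genes with an own-strand entry at each setting were then 9.84%, 6.75% and 10.3%. The difference in entries was -45.3 in the better-scoring 50%, -46 at equal list length and -37.3 at a width of at least 100 bases. Covered bases differed by -6523 at equal list length and -6489 at that width, and genes with an entry by -5.67 at equal list length and -8 on the own strand. The cause was not tested. Leaving out 1 library gave 6 to 6 SSC-only members, -6.5 to -6 genes, -60.2 to -50.2 entries and -8533 to -6938 bases. Over all genes SSC-only calls then numbered 1550 to 2317. SSC-only genes over all genes numbered 1501, against 974 in the better-scoring 50%, 760 at equal list length, 2998 with 2 of 3 SSC lists and 2317 without SSC replicate 2. Single members moved by over 1.5 times. At equal list length the entries of Rad21l differed by -1.33, of Tex12 by -1 and of Syce2 by -0.33, and in the better-scoring 50% by -1, -0.67 and -0.33, in place of -3.67, -2 and -1.33. Their covered bases moved likewise, at equal length to -183 in Rad21l, -136 in Tex12 and -3 in Syce2, in place of -448, -285 and -297. At a width of at least 100 bases the entries of Sycp1 differed by -8.33 in place of -19 and its covered bases by -1446 in place of -2197, and the entries of Rad21l by -2, Stag3 by -1, Syce1 by -1.67 and Tex12 by -1. The covered bases of Syce2 differed by -75.7 without iNSC replicate 1, and its entries by -0.83 without SSC replicate 2. Covered bases of Sycp3 differed by -301, by -178 without SSC replicate 1, -456 without SSC replicate 3, -478 at equal length, -839 in the better-scoring 50% and -624 on the own strand. Same-numbered libraries did not deviate together (r = 0.0018, -0.038 and 0.0481 across 9273 genes, which are not independent), and with the replicate number as a block 18 member results each gave an exact sign-flip p of 0.25, the smallest possible. Neither that test nor the unblocked one can pass 0.05 at this size, so they say nothing about stability. The lists give no read depth, so entries absent from a list may lie under its limit.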
